A study of Mus musculus with 16 samples.

Results

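The genes described here are 6 that mark hepatic stellate cells (HSCs) or make their fibrillar matrix, namely Dcn (decorin), Vipr1, Pdgfrb, Hgf, Col1a1 and Col1a2. They were chosen by symbol, and they were 6 of the 5716 rows with a gene name in the table of quiescent HSCs (qHSCs). Of the 419 named rows for GFP-low and the 123 for GFP-high activated HSCs (aHSCs), 1 and 0 belonged to these genes, the 1 being Hgf. The quiescent groups were lineage label (RFP)-negative and RFP-positive qHSCs, 3 samples each from the same 3 uninjured WT1CreERT2;Ai14 animals, heterozygous for the Cre allele by the study's methods, in which tamoxifen at E10.5 labels WT1-expressing cells of the embryo and their descendants. The activated groups were RFP-positive aHSCs of PDGFRbCre;WT1_+_GFP;Ai14 controls and of PDGFRbCre;WT1_fl_GFP;Ai14 animals with deletion of WT1, all after 8 weeks of CCl4, a hepatotoxin. They were sorted into GFP-high cells, 3 samples a genotype, and GFP-low cells, 2 samples a genotype, of which 1 control sample pooled 2 animals. GFP reports the WT1 locus, and its knock-in allele carries no working WT1 in either genotype, so controls had a single working copy. The Cre follows the PDGFRβ promoter, is constitutive and is also active in the germline. All animals were C57/Bl6 and labelled male, their ages were not given in the labels, and the study's methods give female animals for qHSC isolation after labelling at E10.5. Cells were enriched by density centrifugation and then sorted on these reporters. Wt1 itself was not analysed here, so the deletion was not checked.

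HSCs lie between the hepatocytes and the sinusoidal endothelium, store vitamin A while quiescent, and after injury become the myofibroblasts that deposit scar. Type I collagen, the main fibre of that scar, is a trimer in which the chain from Col1a1 outnumbers that from Col1a2. Decorin binds the surface of collagen fibrils. Platelet-derived growth factor receptor β (Pdgfrb) receives the mitogen that drives HSC expansion, Vipr1 encodes VPAC1, a receptor for the neuropeptides VIP and PACAP that is also known from T lymphocytes, and hepatocyte growth factor (Hgf) is secreted by HSCs and sinusoidal endothelium and acts on hepatocytes through Met.

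By the annotation GENCODE vM21 (GRCm38), Hgf is at chr5:16553495-16620152, Col1a2 at chr6:4504814-4541544, Vipr1 at chr9:121642716-121672954, Dcn at chr10:97479609-97518143 and Col1a1 at chr11:94936224-94953042, all on the plus strand. These positions are of the annotation, not of the deposited values, whose build is not tied to a table. Dcn, Vipr1, Col1a1 and Pdgfrb overlapped no other gene, Col1a2 overlapped 1 unclassified transcript model (Gm43921) and Hgf 2 (Gm43489, Gm42975) on the same strand, none with a row of its own. Reads of such overlapping models cannot be told apart. RefSeq start sites (GRCm38.p6) with the sequence before them were matched for 3 of the 6 genes. These 3 were Vipr1, the gene with the largest difference in qHSCs, Hgf, the only gene higher in label-positive qHSCs, and Col1a2. Their sequences are shown, and they differ in motifs common near start sites. Hgf has a second RefSeq start, whose window is not printed. Capitals mark the CCAAT box (CCAAT) and the GC box (GGGCGG) on either strand, which do not overlap here. For Col1a2 the stretch outside annotated exons is printed, and its CCAAT box lies beyond it. That stretch precedes the RefSeq start but lies inside the annotated gene, which begins at chr6:4504814.
Vipr1, chr9:121642466-121642715, plus strand: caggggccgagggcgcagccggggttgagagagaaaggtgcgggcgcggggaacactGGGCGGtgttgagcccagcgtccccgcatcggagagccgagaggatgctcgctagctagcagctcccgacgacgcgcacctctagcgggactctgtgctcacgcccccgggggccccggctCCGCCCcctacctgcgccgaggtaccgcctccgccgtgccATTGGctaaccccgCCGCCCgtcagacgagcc
Hgf, chr5:16553245-16553494, plus strand: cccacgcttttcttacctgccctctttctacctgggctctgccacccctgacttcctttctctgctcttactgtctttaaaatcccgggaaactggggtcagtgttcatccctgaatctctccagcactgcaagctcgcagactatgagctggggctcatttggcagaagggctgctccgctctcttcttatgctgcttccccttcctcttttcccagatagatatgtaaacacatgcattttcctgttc
Col1a2, chr6:4505370-4505492, plus strand: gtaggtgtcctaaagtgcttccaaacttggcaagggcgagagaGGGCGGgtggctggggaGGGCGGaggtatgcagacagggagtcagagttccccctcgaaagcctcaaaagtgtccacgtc
The 250 bases before the start held 3 GC boxes and 1 CCAAT box for Vipr1, 2 and 1 for Col1a2, and 0 of either for Hgf. The TATA box (TATAAA, either strand) was in none of the 3. Among all 32851 RefSeq windows of this length 32.7% held a GC box, 33.8% a CCAAT box and 12.4% a TATA box, so these matches are a description of the letters only. The Vipr1 window was 72.8% G or C and that of Hgf 50.8%, where the median window had 52.4%.

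The deposited values were 1 FPKM for each group and gene, a read level corrected for transcript length and for the number of mapped fragments, and only genes the authors had called different between the groups had a row. No value per sample was used, so the spread between animals and the read depth are unknown, and no difference below was tested again. Where a pair of FPKM values is given for qHSCs, the label-negative group comes first, and for aHSCs the control. In qHSCs 5 of the 6 genes were lower in label-positive than in label-negative cells and Hgf was higher. All 6 had an absolute log2 FPKM ratio of at least 1, but so did 81.2% of all rows (37.7% higher and 43.5% lower in label-positive cells), so this count does not set the 6 genes apart. The median log2 ratio of the 6 was -1.38, against 0.64 over all rows above 0 in both groups. The 5 lower genes alone had a median of -1.47, against -2.02 over all such rows lower in label-positive cells. Only Vipr1 was past that value.

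Dcn was the most abundant of the 6 genes. Label-negative qHSCs had 109 FPKM of it and label-positive qHSCs 49.0, 2.22 times less (log2 ratio -1.15). In label-negative cells 92.6% of rows had a lower FPKM than Dcn, and in label-positive cells 82.4%. Dcn thus had the smallest log2 difference of the 5 lower genes but the largest difference in FPKM.

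The 2 chains of type I collagen differed between the groups by nearly the same ratio. The FPKM values of Col1a1 were 7.28 and 2.63 (log2 ratio -1.47) and those of Col1a2 13.7 and 4.49 (log2 ratio -1.60), with the label-negative cells higher in each case. These log2 ratios were 0.13 apart. Per unit of length Col1a2 was 1.88 times as abundant as Col1a1 in label-negative and 1.71 times in label-positive cells, although the protein holds more of the Col1a1 chain. Dcn was 15.0 and 18.7 times as abundant as Col1a1 in the same groups. Both collagen genes lay in the middle of the table, with 45.8% (Col1a1) and 58.2% (Col1a2) of rows below them in label-negative cells and 36.4% and 43.9% in label-positive cells.

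Of the receptors, Pdgfrb was the least abundant of the 6 genes and Vipr1 had the largest ratio. Pdgfrb, whose product is used to identify HSCs, was at 0.905 and 0.370 FPKM (log2 ratio -1.29). It was below 1 in both groups, as were 632 of all rows, and only 16.3% and 13.8% of rows had a lower value. A ratio of such low levels is sensitive to a constant added to both, and with 1 FPKM added it was -0.48. Vipr1 was at 15.3 and 2.35 FPKM, 6.49 times lower in label-positive cells (log2 ratio -2.70). The share of rows below it was 60.6% in the former and 34.7% in the latter, the largest shift in place among the 6 genes.

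Hgf went the other way. It was at 17.0 FPKM in the label-negative cells and reached 44.1 in the label-positive cells, 2.59 times as much (log2 ratio 1.37). The median log2 ratio of all rows higher in label-positive cells was 1.31, so the value for Hgf lay close to the middle of them. Dcn exceeded Hgf 6.39 times in label-negative cells and 1.11 times in label-positive cells. Hgf and Vipr1 stood close together in label-negative cells (a ratio of 1.12), whereas in label-positive cells Hgf was 18.8 times as abundant. In descending order of FPKM the genes ranked Dcn, Hgf, Vipr1, Col1a2, Col1a1 and Pdgfrb in label-negative cells, and Dcn, Hgf, Col1a2, Col1a1, Vipr1 and Pdgfrb in label-positive cells. Neighbours in these orders could not be compared against a spread.

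**Figure D1:**
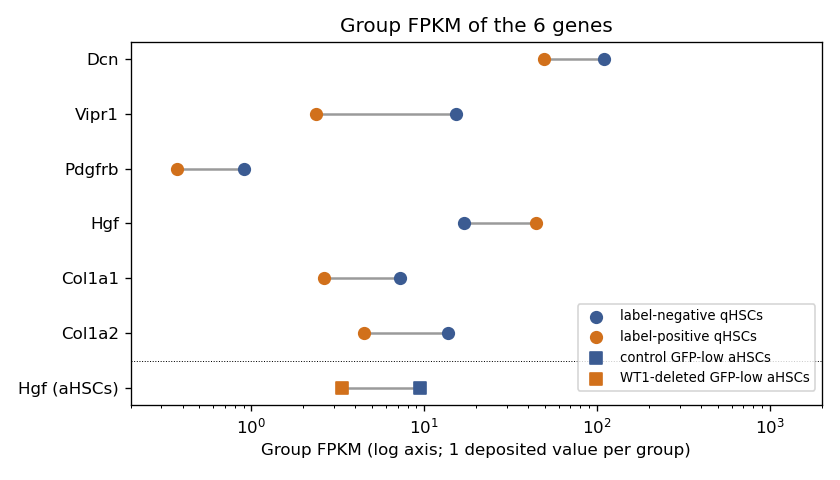
Group FPKM on a log axis for each of the 6 genes in label-negative and label-positive qHSCs (circles, joined by a line) and for Hgf in control and WT1-deleted GFP-low aHSCs (squares, below the dotted line); each point is 1 deposited group value with no error. Hgf is the only gene with its label-positive circle to the right, at 44.1 against 17.0, while Pdgfrb lies below 1 in both groups.

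The rows nearest to each gene in both log2 group values, 3 for each gene among 5583 rows that name a single gene and are above 0 in both groups, lay within 0.133 log2 units of it. They were Ankrd44, Cdk2ap2 and Ctsc for Dcn, Amica1, Ighv2-6 and Ccr9 for Vipr1, Wdr95, Olfm4 and Kif15 for Pdgfrb, and Tceal8, Tmcc3 and Asl for Hgf. Nearest to Col1a1 were RP24-144C5.1, Col6a1 and Slc7a6, and nearest to Col1a2 were Thap6, Ear2 and Mfap5. Col6a1, a chain of type VI collagen, had an FPKM of 7.20 and 2.52, and Ccr9, a chemokine receptor of lymphocytes, 14.8 and 2.16. Likeness over 2 group values is a likeness of level and ratio only.

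Other genes known from quiescent stellate cells did not share a direction in qHSCs. Of 39 on the list 20 had a row, 11 higher (10 past the fold) and 9 lower (8 past it) in label-positive cells, with a median log2 ratio of 0.92. The largest differences on the lower side at an FPKM of at least 1 were in Gdf10, a growth factor of the TGF-β family (2.73 and 0.561), Pdgfra, the second PDGF receptor (3.47 and 0.743), and G0s2, an inhibitor of lipolysis (131 and 31.9). On the higher side were the endothelin receptor Ednrb (5.58 and 33.8), Tmem56 (0.296 and 2.44) and Rgs5, a regulator of G-protein signalling known from pericytes (0.750 and 3.29). Both PDGF receptors were thus on the lower side. Of the PDGF ligands, Pdgfc (0.547 and 1.35) and Pdgfd (9.02 and 24.9), the latter a ligand of PDGFRβ, were both higher where the receptors were lower. Of 6 genes on this list 3 had a row.

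The fibrillar collagens outside type I were also divided. Of 9 on the list 5 had a row, 3 lower and 2 higher in label-positive cells, with a median log2 ratio of -0.99. Col11a2 was at 4.80 and 1.34, Col5a3 at 0.956 and 0.270 and Col5a1 at 2.42 and 1.22, lower in label-positive cells as Col1a1 and Col1a2 were. Col5a2, whose chain assembles with that of Col5a1, was higher at 4.29 and 7.45, and Col27a1 at 4.09 and 8.74.

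Among genes that fold, process or degrade collagen, 20 of 42 on the list had a row, and 14 were higher and 6 lower in label-positive cells (12 and 5 past the fold, median log2 ratio 1.06), where 2883 of all 5716 rows were higher. Higher were Sparc, a collagen-binding matricellular protein (358 and 1079), Serpinh1, the collagen chaperone HSP47 (59.4 and 124), the lysyl hydroxylase Plod1 (43.3 and 102) and the prolyl hydroxylases P4ha1 (50.6 and 80.7) and P4ha2 (10.8 and 24.5). The inhibitor Timp3 was at 67.0 and 211 and the collagenase Mmp14 at 56.8 and 142. Lower were Adamts14 (5.88 and 0.445) and Bmp1 (2.47 and 1.15), which trim the procollagen ends, the cross-linking enzymes Lox (1.62 and 0.828) and Loxl1 (3.32 and 1.06), the neutrophil collagenase Mmp8 (17.9 and 2.33) and the gelatinase Mmp2 (5.39 and 1.58). The cross-linking enzymes were divided, since Loxl2 (3.28 and 8.36) and Loxl4 (0.797 and 1.91) were higher. Adamts14, Mmp8, Mmp2 and Timp3 had the largest ratios of the list, and the others were named for their role after their values were seen.

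Receptors for collagen had 7 rows of 12 genes, 3 higher and 4 lower (median log2 ratio -1.26). Itga2 (2.08 and 0.109), Itga11 (0.747 and 0.146), the fibroblast receptor Ddr2 (3.96 and 1.59) and the leukocyte receptor Lair1 (17.3 and 7.22) were lower in label-positive cells. Itgb1 (171 and 296), the β-subunit these integrins share, Itga1 (23.7 and 56.5) and Adgrg1 (32.7 and 78.9) were higher. Of the proteoglycans related to decorin, 5 of 15 genes had a row, 3 higher and 2 lower, with a median log2 ratio of 1.03. Lum, which like Dcn binds fibrils of type I collagen, was lower in label-positive cells (10.9 and 3.82), as was Epyc (0.388 and 0.114). Bgn, the proteoglycan closest to decorin, was higher at 215 and 561, as were Prelp (35.2 and 84.0) and Fmod (1.20 and 2.45). Dcn and Bgn thus stood in opposite directions.

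Around Hgf, 7 of 13 genes for its receptor, activators and inhibitors had a row, 3 higher and 4 lower in label-positive cells (median log2 ratio -0.87). Higher with Hgf were Hpn, a protease that activates HGF (3.70 and 9.28), Gab1, an adaptor of the receptor Met (4.73 and 10.6), and Spint2, an inhibitor of HGF activation (44.2 and 70.6). Among the lower were the urokinase receptor Plaur (88.2 and 24.0), the activating protease St14 (2.87 and 0.873) and Plat (3.78 and 2.07). Of 14 other ligands and receptors of the family to which VIP and VPAC1 belong, 3 had a row, all receptors. The PACAP receptor Adcyap1r1 (0.769 and 0.137) and Glp1r (0.707 and 0.193) were lower and Gcgr (0.367 and 1.20) higher in label-positive cells, and none exceeded an FPKM of 1.20 in either group.

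Markers of other liver cell types also differed between the qHSC groups and reached far higher levels. All 21 sinusoidal endothelial markers with a row, of 23, were higher in label-positive cells, with log2 ratios from 1.28 to 1.86 and a median of 1.45, a range that holds the 1.37 of Hgf. Their levels ran from 27.4 to 1022 FPKM in label-negative and from 99.4 to 2787 in label-positive cells, so the lowest of them, Lyve1 in label-negative cells, exceeded each of the 6 genes but Dcn there. All 20 lymphocyte markers were lower in label-positive cells, with log2 ratios from -5.92 to -3.49, at 20.6 to 337 FPKM in label-negative and 1.12 to 30.0 in label-positive cells. Vipr1, the gene with the largest ratio of the 6, lay outside that range at -2.70. Ptprc, at 337 and 30.0 FPKM, gave the end at -3.49, and the next ratio was that of Lck at -3.63. Hepatocyte markers had 19 higher and 1 lower of 20 rows (median log2 ratio 2.43), and macrophage markers 8 higher and 7 lower of 15 (median 0.94). The macrophage rows were divided by gene, with Marco (4.82 and 32.4), Clec4f (34.2 and 166) and Cd5l (20.3 and 86.0) of Kupffer cells higher, and Lgals3 (94.9 and 17.8) lower. Summed over their rows, the sinusoidal markers came to 5896 and 16076 FPKM, the lymphocyte markers to 2305 and 104 FPKM, and Dcn, Vipr1, Pdgfrb and Hgf together to 142 and 95.8 FPKM. In cells labelled as stellate, the endothelial markers, a longer list, thus outweighed these 4 stellate genes in both groups. The lymphocyte markers, also a longer list, did so by far in the label-negative group and by little in the label-positive group. The 20 rows of other quiescent stellate genes summed to 346 and 383 FPKM. The largest part came from G0s2 in label-negative cells (131 and 31.9) and from Plvap in label-positive cells (58.5 and 143). The log2 ratio of Plvap, 1.29, lay within the range of the endothelial markers, so this sum may not be of stellate cells alone. In label-positive cells the sum of the 20 rows exceeded the lymphocyte markers, and in label-negative cells it was below them. The classical stellate markers Lrat, Reln, Des and Gfap had no row and were not analysed here. The part of these markers in the results for the 6 genes was not tested. In bulk samples fewer cells of a type and less RNA per cell cannot be told apart.

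**Figure D2:**
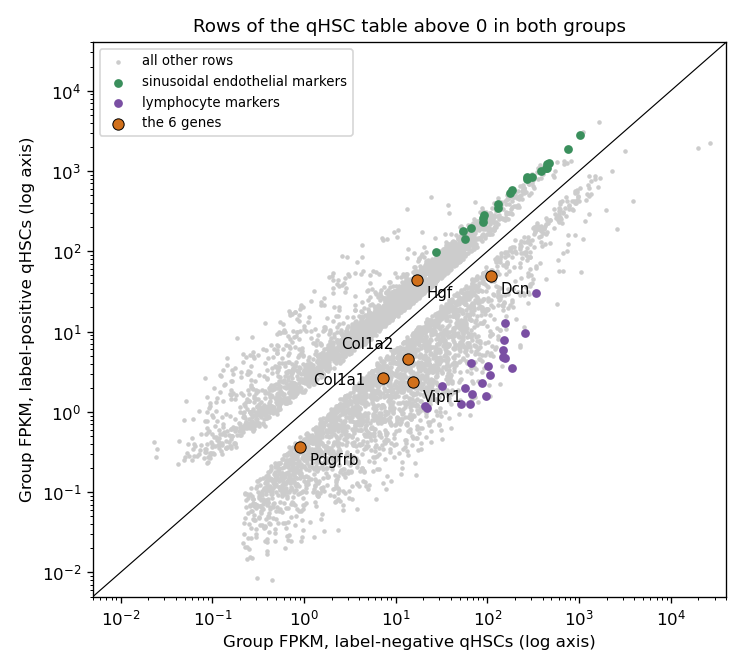
Group FPKM in label-positive against label-negative qHSCs, both on log axes, for the rows above 0 in both groups (gray), sinusoidal endothelial markers (green), lymphocyte markers (purple) and the 6 genes (orange, named); the line marks equal values. Hgf lies in the band of rows above the line that holds the endothelial markers, and the other 5 genes lie below the line, with Vipr1 nearest to the lymphocyte markers.

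**Figure D3:**
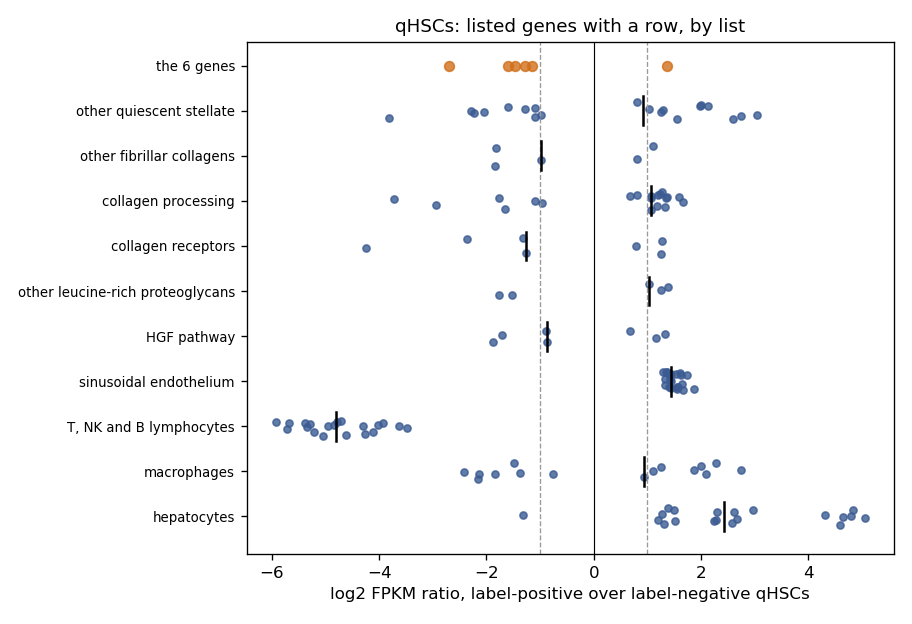
log2 FPKM ratios, label-positive over label-negative qHSCs, of the 6 genes (orange) and of the genes with a row in each list (blue; black bars are list medians, dashed lines the fold of 1 log2 unit). The endothelial markers, at 1.28 to 1.86, and the lymphocyte markers, at -5.92 to -3.49, each lie on 1 side, whereas the stellate, collagen and HGF lists lie on both.

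The ratios also depend on how the groups are scaled to each other, since the rows, all of called genes, summed to 322799 FPKM in label-negative and 243032 in label-positive qHSCs. Segments of antigen receptor genes, 285 rows, made up 30.4% of the first sum and 2.24% of the second. Of 6 alternatives 4 were scalings, and the directions of all 6 genes were the same under each of these. For the 5 lower genes the scalings could give no other direction. No lower row was below 0.55 in size, and the largest upward shift was 0.48. The other alternatives add a constant to both groups, which cannot change a direction. Centred on the median of all rows, a shift of -0.64, the ratio of Hgf was 0.73 and those of the 5 lower genes ran from -1.79 (Dcn) to -3.34 (Vipr1), and 11.6% of rows were then higher and 49.6% lower past the fold. Scaled to the same sum, a shift of 0.41, Dcn was at -0.74 and Pdgfrb at -0.88, and the split was 50.1% and 35.2%.

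**Figure D4:**
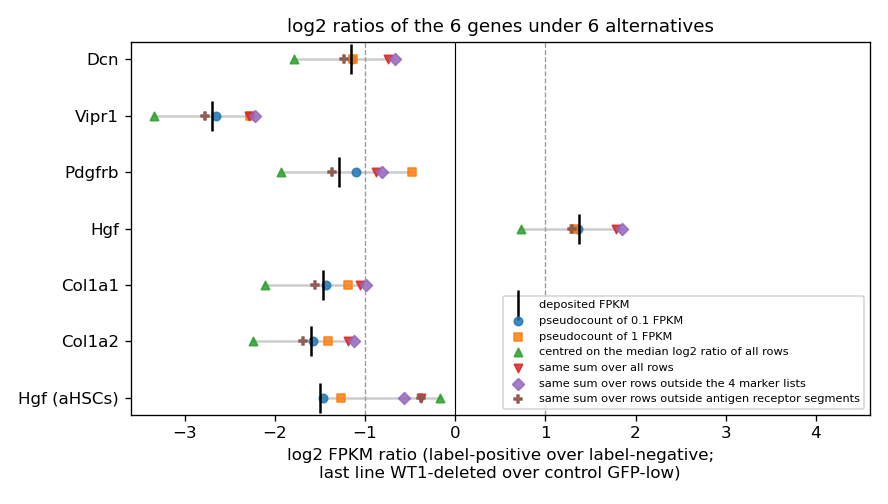
log2 FPKM ratios of the 6 genes in qHSCs, and of Hgf in GFP-low aHSCs, from the deposited FPKM (black bar) and under 6 alternatives (symbols); dashed lines mark the fold of 1 log2 unit. No symbol crosses 0, but those of Hgf in aHSCs reach -0.17.

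Deletion of WT1 was compared with controls within each GFP fraction of aHSCs, and of the 6 genes only Hgf in GFP-low cells had a row. Its FPKM was 9.45 in control and 3.35 in WT1-deleted GFP-low aHSCs, 2.82 times lower after deletion (log2 ratio -1.50). All rows of this table were past the fold (100% of 419, and 62.8% lower), with a median log2 ratio of -1.33, so Hgf lay near the middle of the table. Scaled to the same sum of FPKM, 24909 and 11506 before scaling, its ratio was -0.38, and centred on the median it was -0.17. Its direction was the same in both cases. These scalings use called rows only, most of them lower, so they cannot settle how large the difference is. Values of Dcn, Vipr1, Pdgfrb, Col1a1 and Col1a2 in aHSCs were not analysed here. Genes without a row are not shown to be unchanged.

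Hgf differed in direction from the other stellate genes of this table. All 5 quiescent stellate genes with a row were higher after deletion, namely Rgs5 (1.41 and 8.20), Rspo3, a Wnt agonist (1.12 and 4.58), Colec11 (2.92 and 10.7), Cygb, the globin of HSCs (39.5 and 96.5), and Pdgfra (18.8 and 43.4). The 6 activation genes with a row were higher as well, among them the matrix genes Tnc (6.61 and 32.9) and Lum (38.1 and 122), Mmp2 (19.5 and 82.8) and Ctgf (11.5 and 31.7). Col24a1 was the single other fibrillar collagen, at 2.13 and 5.99. Lox was at 28.1 and 62.7 and the collagenase Mmp13 at 17.5 and 3.79. Lower with Hgf were the urokinase gene Plau (36.2 and 12.7), Pdgfb (21.7 and 7.72), a ligand of PDGFRβ, and Lair1 (81.9 and 26.5). The product of Plau can activate HGF.

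All 12 macrophage rows were lower after deletion too, with log2 ratios from -2.36 (the row shared by C1qb and C1qc, 1463 and 284) to -1.42 (Csf1r, 269 and 100), summing to 5704 FPKM in controls and 1449 in deleted cells. The 3 sinusoidal endothelial markers with a row, Stab1 (120 and 30.8), Mrc1 (36.1 and 9.88) and Cdh5 (17.9 and 8.09), were lower by log2 ratios of -1.97, -1.87 and -1.15, and the -1.50 of Hgf lay among them. The other 20 of the 23 listed had no row. Stab1 and Mrc1 also lay within the range of the macrophage rows, and Cdh5 did not. Gzma, the single lymphocyte row, was at 9.93 and 3.05. The part of these markers in the ratio of Hgf was not tested.

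**Figure D5:**
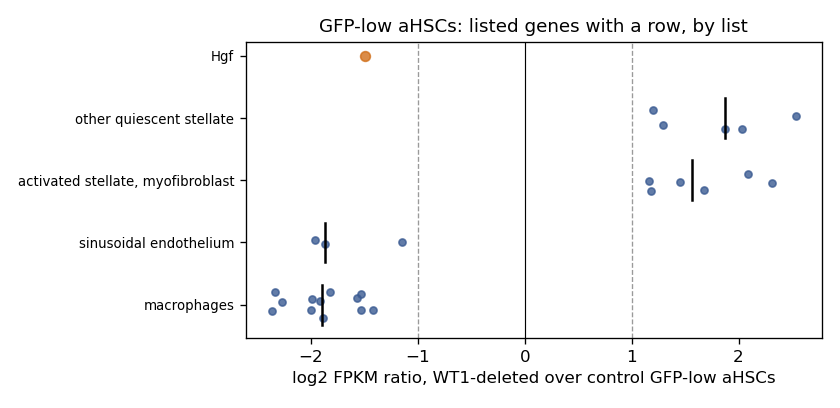
log2 FPKM ratios, WT1-deleted over control GFP-low aHSCs, of Hgf (orange) and of the rows of 4 lists (blue; black bars are list medians, dashed lines the fold of 1 log2 unit). Hgf, at -1.50, is on the side of the macrophage and endothelial markers, and all 5 other stellate and 6 activation genes are above 1.

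In GFP-high aHSCs none of the 6 genes had a row. Related genes that did were Gdf10 (0.155 and 2.60), Adamtsl2 (0.372 and 2.61), Lum (42.6 and 136), Mmp2 (16.9 and 91.4), Itga11 (0.0833 and 0.899) and Pdgfrl, a receptor-like gene (0.634 and 3.41), all higher after deletion, as were 95 of the 123 rows of this table, whose median log2 ratio was 1.83. Lum and Mmp2, higher after deletion in both fractions of aHSCs, were lower in label-positive than in label-negative qHSCs, as Dcn and both collagen genes were. The GFP-high and GFP-low samples came from animals in common, so the fractions are not independent of each other.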

How the data were processed

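RNA of 16 sorted HSC samples (6 quiescent, 10 activated) was sequenced on an Illumina HiSeq. The study's methods name bowtie 2 for mapping, Cuffdiff2 for differential expression, with calls at an adjusted p below 0.05. The authors used DESeq2 for a principal component analysis only. The submitters' processing notes list TopHat2 2.0.3, Cufflinks 2.0.1 and the builds mm9 and mm10, without their roles. Annotation and strand setting are not given in the sources used here. The authors deposited FPKM as 1 value per group and gene, with replicates combined. Tables of the authors' own comparisons, with deposited fold changes, p-values and q-values, were used only to count rows: all 5716, 123 and 419 had a q-value below 0.05, and the same named rows form the FPKM tables. Loci without a gene name (108 in GFP-high, 149 in GFP-low) were left out. No column of values per sample was left unused.

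log2 ratios were computed from the group FPKM without a pseudocount. Without values per sample there was no test, no error and no depth, and the planned fits for values per sample were not run. Levels were placed by the percentage of rows below them. The members and the 18 gene lists were chosen with earlier results of these data known. The genes named are the 6 members, at most the 4 genes of each list with the largest absolute log2 ratio in rows reaching 1 FPKM in either group, all genes with a row of the lists of fibrillar collagens, collagen receptors, leucine-rich proteoglycans, PDGF, HGF and VIP families, and 3 nearest rows per member; others were named after their values were seen. The values of 1 listed gene are not reported here. A row naming several genes was counted for a list when any of them was on it. Alternatives were pseudocounts of 0.1 and 1, centring on the median, rescaling to the same sum with and without marker lists, a log2 fold of 1.5, a minimum FPKM and rows of 1 gene. Scripts were tested on simulated data. Sequences were from RefSeq (GRCm38.p6). Python 3.11.15, pandas 2.3.3, numpy 2.4.6 and matplotlib 3.10.9 were used.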

Additional observations from a re-analysis of the deposited data

How the results depend on the processing

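No log2 ratio of the 6 genes changed direction under the 4 scalings, and an added pseudocount cannot change one. In qHSCs the scalings could not reverse any lower row either. None was below 0.55 in size, and the largest upward shift was 0.48. For the log2 ratios in qHSCs, centring on the median of all rows moved all 6 by more than 1.5 times, to -1.79 (Dcn), -3.34 (Vipr1), -1.93 (Pdgfrb), 0.73 (Hgf), -2.11 (Col1a1) and -2.24 (Col1a2), and a pseudocount of 1 moved Pdgfrb to -0.48, its FPKM being below that constant in both groups. The number of the 6 genes past a log2 ratio of 1 in size was 5 after centring, where 61.2% of all rows passed. At the same sum it was 4, where 85.2% of rows passed. It was 3 when the sums were equalised outside the lymphocyte, macrophage, endothelial and hepatocyte lists, where 84.5% of rows passed. With the fold raised to 1.5 it was 2, and 50.3% of all rows passed. Hgf in GFP-low aHSCs was below the fold under all 4 scalings, at -0.17 (centred), -0.38 (same sum), -0.57 (same sum outside the marker lists) and -0.38 (same sum outside antigen receptor segments, an alternative chosen after seeing the data). Of 116 list counts under a minimum FPKM or with rows of 1 gene only, 112 stayed within 1.5 times. In qHSCs every row names 1 gene, so there the second setting could change no count. No paired analysis was possible because only 1 value per group was used, although both qHSC fractions came from the same 3 animals; leaving out a replicate was not run for the same reason. Depth limits are unknown, and values below 1 FPKM, such as those of Pdgfrb, carry no stated precision.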

Other observations

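Genes of activated stellate cells and myofibroblasts were divided in qHSCs. Of 30 on the list 17 had a row, 6 higher and 11 lower in label-positive cells, with a median log2 ratio of -0.99. Lower were Thy1, a surface protein of fibroblasts and T lymphocytes (106 and 9.02), the calcium-binding S100a6 (302 and 50.0), fibronectin Fn1 (109 and 24.8) and Vim (586 and 248), whereas Ctgf (6.23 and 16.4) and Spp1 (26.0 and 70.1) were higher. Col6a1 and Lum, at -1.51 and -1.52, lay between Col1a1 and Col1a2.

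Mesothelial genes had 7 rows of 13 genes, all higher in label-positive qHSCs, at a median log2 ratio of 1.43 and with sums of 17.6 and 52.0 FPKM. Msln was at 1.65 and 4.67 and Upk3b at 2.26 and 5.98, both above Col1a1 (2.63) and Col1a2 (4.49) in label-positive cells. Upk1b (2.46) and Lrrn4 (1.77) were below both collagen genes there. Cholangiocyte genes had 4 rows of 9, 3 higher and 1 lower. Genes of smooth muscle and portal fibroblasts had 7 rows of 19, 3 higher and 4 lower (median -1.12). Lower besides Thy1 were Pi16 (32.6 and 8.71), Clec3b (22.1 and 6.30) and Fbln1 (11.1 and 5.08), and higher were Gas6 (87.2 and 204), Smtn (15.9 and 39.2) and Myh11 (0.0907 and 0.276). In aHSCs Dpt, a gene of the same list, was higher after WT1 deletion in GFP-low (24.7 and 62.8) and GFP-high cells (8.66 and 87.0), and so were Sox9 and Epcam in GFP-low cells. Car3 was the single hepatocyte row of the GFP-low cells, at 1.97 and 14.2, and Cps1 (0.233 and 1.20) and Fga (2.65 and 6.39) were those of the GFP-high cells. The single lymphocyte row of the GFP-high cells, one that names several genes including Trbc2, was at 12.1 and 436. None of these differences was tested again here.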
